A study of Mus musculus with 12 samples.

Results

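The comparison concerns the anterior epiblast of mouse embryos at E7.75 that carried or lacked Dkk1. It rests on 6 Illumina bead arrays of the 12 in the series, 3 from Dkk+/+ embryos, called control here, and 3 from Dkk-/- embryos, called knockout. The 6 were chosen by their labels for genotype and tissue, not by any measured value. A probe was kept where at least 3 of these 6 arrays had a detection p-value under 0.05, which gave 18903 of 46237 probes, of which 14527 carried a gene name and stood for 10220 genes. The sample codes name Dkk1, whereas the genotype field reads Dkk. The protocol field mentions more genotypes than the pair it names, and the others are not analysed here. The labels give no strain background, no allele design, no number of embryos per array and no statement that replicates came from separate embryos. The p-values therefore measure only the spread between these arrays, which may be technical in part. Sex-linked genes, given below, differed between replicates of a group.

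Dkk1 encodes a secreted protein that binds the Wnt co-receptors LRP5 and LRP6 and keeps Wnt ligands from activating beta-catenin. At gastrulation it is made by the anterior visceral endoderm and later by the anterior mesendoderm, next to the tissue that forms the forebrain, while Wnt ligands are made posteriorly in and around the primitive streak. Mouse embryos without Dkk1 are known to lack the head anterior to the midbrain. In cells that receive a Wnt signal, beta-catenin joins TCF/LEF factors on the DNA and activates target genes such as Axin2, Sp5 and Cdx1.

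The promoters of Dkk1 and of the genes with the largest differences among the Wnt targets and the forebrain genes are shown because they are where TCF/LEF factors could be looked for in the genes this comparison turns on. They are the 250 bases before the gene start in RefSeq (GRCm38.p6), read 5′ to 3′ on the gene's strand, with each TCF/LEF word on either strand in capitals, namely CTTTGAA and its variants that end in AT (CTTTGAT), in TA (CTTTGTA) and in TT (CTTTGTT). Genes absent from the promoter table were passed over, and of the 4 starts listed for Otx2 the first is shown.
Dkk1, chr19:30549497-30549746, minus strand: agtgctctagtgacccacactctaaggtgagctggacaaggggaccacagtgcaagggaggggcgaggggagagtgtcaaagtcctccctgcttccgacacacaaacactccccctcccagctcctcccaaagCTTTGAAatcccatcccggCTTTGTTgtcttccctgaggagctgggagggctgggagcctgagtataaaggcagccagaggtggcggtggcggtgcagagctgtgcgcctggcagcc
Tbx6, chr7:126781233-126781482, plus strand: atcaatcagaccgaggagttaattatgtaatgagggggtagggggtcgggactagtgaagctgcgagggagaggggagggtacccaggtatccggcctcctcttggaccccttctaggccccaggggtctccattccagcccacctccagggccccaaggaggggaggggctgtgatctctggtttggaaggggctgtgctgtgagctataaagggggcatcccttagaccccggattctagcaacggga
Sp5, chr2:70474673-70474922, plus strand: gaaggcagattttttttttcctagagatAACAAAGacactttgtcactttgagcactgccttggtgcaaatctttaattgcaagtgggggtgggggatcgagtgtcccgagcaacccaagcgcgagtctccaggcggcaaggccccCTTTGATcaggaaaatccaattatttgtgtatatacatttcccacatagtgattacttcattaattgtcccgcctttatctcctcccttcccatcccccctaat
Sox2, chr3:34649745-34649994, plus strand: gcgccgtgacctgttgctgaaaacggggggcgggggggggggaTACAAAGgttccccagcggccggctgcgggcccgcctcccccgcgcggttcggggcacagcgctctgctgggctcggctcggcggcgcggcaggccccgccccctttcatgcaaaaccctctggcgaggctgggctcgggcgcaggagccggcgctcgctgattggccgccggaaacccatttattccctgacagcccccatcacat
Otx2, chr14:48667645-48667894, minus strand: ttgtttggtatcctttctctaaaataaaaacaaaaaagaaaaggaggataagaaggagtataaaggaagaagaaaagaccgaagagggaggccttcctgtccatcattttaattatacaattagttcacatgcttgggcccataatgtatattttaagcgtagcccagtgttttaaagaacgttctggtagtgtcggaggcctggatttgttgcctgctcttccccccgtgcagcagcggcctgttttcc
The Sp5 promoter held 2 such words, beginning at -222 and -104 from the start, and that of Dkk1 also held 2, at -117 and -98. The Sox2 promoter held 1, at -207, and the windows of Tbx6 and Otx2 held none. Over windows that also took in the 50 bases after the start, 16.9% of all 32851 RefSeq promoters held at least 1 word and 1.94% held 2 or more. Of the 20 detected Wnt targets described below, 12 were in the promoter table and 5 of them had a word in at least 1 promoter, against 18.9% of all 27025 genes in the table. By promoter these were 5 of 19 (26.3%), against 11.4% of the 10108 promoters of all detected genes. Among the 5 genes was Zcchc8, which is not an established target. Tnfrsf19, Sp8 and Lef1 had a word in only 1 of their 2, 3 and 4 promoters. Of the 14 detected forebrain genes, 6 were in the table and 1 had a word. A word is a description of the sequence and shows no binding, and the words do not overlap each other.

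The 6 arrays were alike in signal, with a mean intensity between 418 and 693 and between 39.2% and 42% of the probes detected. Knockout replicate 2 stood apart. Its correlations with the other arrays ran from 0.969 to 0.977, while the other arrays correlated with each other at up to 0.994. On 321 probes it lay more than 1 log2 unit below every other array, against at most 5 such probes on any other array. Among these were Eef2, at 9.27 against 11.28 to 12.46 on the rest, and Phgdh, at 8.88 against 10.70 to 11.08. The arrays also differed in the sex of the tissue: Xist, the RNA that silences an X chromosome, was at 9.64, 4.41 and 8.31 in the control and 9.24, 9.77 and 10.38 in the knockout arrays. The Y-linked Eif2s3y was at 7.77, 9.23 and 9.44 in the control and 8.75, 9.01 and 4.42 in the knockout arrays, so that most arrays held RNA of both sexes. The part of sex in the differences below was not tested beyond a fit with Xist as a covariate. That fit called 0 probes, but so did the fit without it, so the count cannot show a part of sex. With the covariate 702 of 18903 probes had a limma unadjusted p under 0.05, against 1474 (7.8%) without it. The Xist mean was 7.45 in the control and 9.80 in the knockout arrays, so the covariate overlaps with genotype and makes the fit less precise. The lower count therefore cannot show a part of sex either.

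The tissue label was set against marker genes. Pou5f1, which marks the epiblast, was between 10.94 and 11.89 on all 6 arrays. The visceral endoderm, the outer layer around the epiblast, was also present in the RNA: Ttr lay between 13.98 and 14.31, Apoa1 between 13.76 and 14.04, and 21 of its 25 listed markers were detected, at a mean level of 10.69 to 10.84 in the control and 10.63 to 10.80 in the knockout arrays. Alb, Fgb, Rhox5 and Soat2 were not detected. Of the 21, all knockout arrays lay above all control arrays for 1 and below for 3. In tissue of this kind, fewer cells of a type and less RNA per cell cannot be told apart.

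Dkk1 itself was not lower on the arrays labelled knockout. Its log2 level was 6.25, 5.92 and 6.21 in the control and 6.15, 6.43 and 6.32 in the knockout arrays. The groups overlapped, and the knockout mean was 0.17 higher (SE 0.16, limma adjusted p 0.806). On the posterior arrays, normalized with the rest, the Dkk1 mean was 4.94 in the control, where 2 of 3 arrays detected it, and 4.51 in the knockout, where none did, a difference of -0.43 (SE 0.17, limma unadjusted p 0.0251, adjusted p 0.468). The labels do not say which part of the gene was deleted or whether the probe lies in it, so these levels do not settle the genotype labels. Of the 20 detected genes nearest to Dkk1 on chromosome 19, 10 on each side, differences ran from -0.58 to 0.67 with a median of 0.04, and 1 had an unadjusted p under 0.05. That gene was Stambpl1, with a knockout mean 0.67 higher, and its groups overlapped. Over all 357 detected genes of chromosome 19 the share with an unadjusted p under 0.05 was 7.28%.

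Fitted probe by probe with limma, the knockout and control arrays differed at an adjusted p under 0.05 for 0 of 18903 probes (0%). At an unadjusted p under 0.05 there were 1474 probes (7.8%), 762 higher (4.03%) and 712 lower (3.77%) in the knockout, and all knockout arrays lay above all control arrays for 1317 (6.97%) and below for 1225 (6.48%). The smallest adjusted p was 0.0712, shared by 6 probes, those for Rhbg, Hoxb1, Lhx5, Sp5, Fzd5 and Ripply2, and 25 probes lay under 0.1, of which 18 were higher and 7 lower. The call depended on the fit. A fit over all 4 groups of the series called 48 probes, one with 1 probe per named gene 27, one with trended and robust variances 33, and one that weighted the arrays 403. No call is therefore made here for a single gene, and the differences below are given as measured values. By gene, 808 of 10220 (7.91%) had an unadjusted p under 0.05, 428 higher (4.19%) and 380 lower (3.72%). All knockout arrays lay above all control arrays for 770 genes (7.53%) and below for 697 (6.82%), and these shares are the background for the counts in each group below. The median difference over all genes was 0.01.

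**Figure D1:**
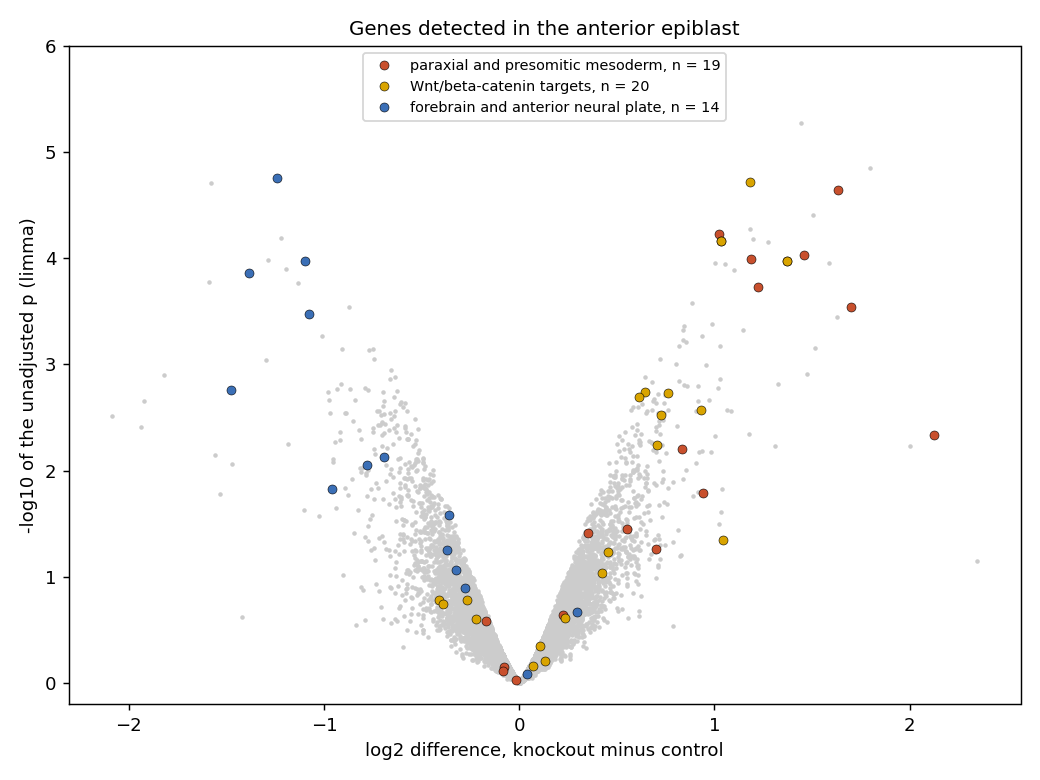
Each point is a detected gene, with the log2 difference between knockout and control anterior arrays on the x axis and -log10 of limma's unadjusted p on the y axis. Of the coloured genes, those of the paraxial mesoderm (19) and Wnt target (20) lists lie mostly to the right and those of the forebrain list (14) mostly to the left.

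Among the Wnt/beta-catenin targets, 20 of 28 listed genes were detected, and all 3 knockout arrays lay above all 3 control arrays for 11 of them and below for 0. The median difference of the 20 was 0.54, with a range from -0.41 to 1.37. Sp5, a zinc finger factor and direct target of the pathway, had log2 levels of 9.70, 9.65 and 9.86 in the control and 10.94, 10.90 and 10.92 in the knockout arrays. The knockout arrays were nearly identical and every one of them was above the control range, with a difference of 1.18 (SE 0.13, limma adjusted p 0.0712). Tbx6, which commits cells to the presomitic mesoderm, was at 6.71, 6.78 and 6.81 in the control and 8.44, 7.72 and 8.26 in the knockout arrays. The difference was 1.37 (SE 0.20, limma adjusted p 0.0918), and knockout replicate 2 was the lowest of its group. Axin2, the feedback inhibitor most used as a readout of the pathway, was at 8.77, 8.71 and 8.72 against 9.37, 9.55 and 9.22. Its difference of 0.65 was smaller than that of Sp5 but also separated the groups (SE 0.14, limma adjusted p 0.282). The other targets with separated groups were Dll1, Fgf8, Notum, Sp8, Cdx1, Cdx2, Tnfrsf19 and Lef1, from 0.42 for Lef1 to 1.04 for Cdx1. The separation of Cdx1 was narrow, with its highest control array at 6.79 and its lowest knockout array at 6.88 (SE 0.44). A second Cdx1 probe gave 1.41 with overlapping groups. Lef1, a transcription factor of the pathway, rested on 1 knockout array: its levels were 6.03, 5.95 and 5.97 in the control and 6.91, 6.05 and 6.27 in the knockout arrays. Not all targets followed. Myc, Lgr5, Cd44 and Id2 had knockout means 0.22 to 0.41 lower with overlapping groups, and Ccnd1 differed by 0.11. Apcdd1, an inhibitor that the pathway induces, differed by 0.13 on its brightest probe and by 1.11 on another. The list also holds Tcf4 and Zcchc8, which are not established targets, and its genes Cdx1, Cdx2, Fgf8 and Dll1 are regulated by other signals of the streak as well.

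The Wnt ligands gave 12 detected of 25, with 6 above, 1 below and a median difference of 0.32. Wnt8a, a ligand of the primitive streak, was at 6.48, 7.51 and 6.98 in the control and 8.33, 8.67 and 7.95 in the knockout arrays, a difference of 1.33 (SE 0.28, limma adjusted p 0.282). Its other 2 detected probes gave 1.06 and 1.26. Wnt5a, which acts mainly without beta-catenin, was 0.99 higher on its brightest probe and 0.43 on another, and Wnt2 was 1.47 higher. Wnt3a, which maintains the presomitic mesoderm, was at 5.09, 5.60 and 5.95 against 6.01, 5.91 and 6.79, and its groups overlapped. The ligand on the other side was Wnt7b, at 7.40, 7.66 and 6.70 in the control and 4.56, 4.88 and 6.51 in the knockout arrays. Wnt7b is also a gene of the extraembryonic ectoderm and is taken up with that tissue's markers below.

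Of the Wnt receptors and transducers, 21 of 27 were detected, and the groups overlapped for 17. The 2 with the smallest p pointed in opposite directions. Fzd5, a receptor of the anterior neural plate and eye field, was at 10.75, 10.36 and 10.21 in the control and 8.99, 8.89 and 8.69 in the knockout arrays. The groups were more than 1 log2 unit apart at their nearest arrays, and the difference was -1.58 (SE 0.18, limma adjusted p 0.0712), while the second Fzd5 probe gave -0.82. Fzd10, a receptor of the streak and posterior mesoderm, was at 6.88, 7.16 and 6.89 in the control and 7.89, 8.05 and 8.01 in the knockout arrays, a difference of 1.00. A second Fzd10 probe gave only 0.18 (SE 0.29). Lrp6, the co-receptor that Dkk1 binds, differed by 0.14 and Kremen1, a receptor that acts with Dkk1, by -0.13, both with overlapping groups.

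The antagonists of the pathway were mixed, with 17 of 25 detected, 3 above, 3 below and a median difference of 0.17. Frzb, a secreted Wnt-binding protein, was at 6.17, 5.84 and 6.02 in the control and 6.77, 7.50 and 7.20 in the knockout arrays. Notum, an extracellular enzyme that inactivates Wnts and is itself a target, was 0.76 higher. Sfrp5, a Wnt-binding protein of the anterior visceral endoderm and foregut endoderm, was not detected on any control array and was at 5.97, 5.58 and 5.35 on the knockout arrays, at least 1.59-fold higher. A group not detected on any array was set here and below to the lowest detected signal of each array. In the other direction, Shisa2, which retains Wnt and FGF receptors in the endoplasmic reticulum, was at 10.48, 10.11 and 10.20 in the control and 9.12, 9.27 and 8.81 in the knockout arrays. The difference was -1.20 (SE 0.18, limma adjusted p 0.0983), and -0.56 on a second probe. Cer1, an inhibitor of Wnt, Nodal and BMP ligands from the anterior endoderm, differed by 0.27 with overlapping groups.

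The forebrain and anterior neural plate list had its detected genes on the low side. Of 30 listed genes 14 were detected, with 0 above, 9 below and a median difference of -0.74. Lhx5, a LIM homeodomain factor of the early forebrain, was at 7.07, 7.17 and 7.17 in the control and 5.83, 5.81 and 6.05 in the knockout arrays. That is a difference of -1.24 (SE 0.14, limma adjusted p 0.0712), with more than 1 log2 unit between the nearest arrays of the groups. Otx2, the homeodomain factor needed for forebrain and midbrain, was at 11.55, 11.59 and 11.36 in the control and 10.61, 10.23 and 10.36 in the knockout arrays. The groups were separate and Otx2 was detected on all 6 arrays, with a difference of -1.10 (SE 0.16, limma adjusted p 0.0918). Pou3f1, a POU factor of the early neural ectoderm, was 1.08 lower, Dlx6, a gene of the anterior border, 1.38 lower, and Otx1, the relative of Otx2, 0.69 lower, each without overlap. Hesx1, a repressor needed for the forebrain, was at 5.65, 5.36 and 6.37 in the control and 4.52, 5.38 and 4.60 in the knockout arrays, where replicate 2 overlapped the control. Sox2, a neural and pluripotency factor, was at 7.69, 7.85 and 7.19 against 6.67, 5.40 and 6.25, but a second Sox2 probe differed by only -0.18. Sox3, a neural factor of the same family, was 0.04 higher. Six3, Rax, Emx2 and Pax6 were among the 16 listed genes that passed no filter or had no named probe. Six3 was detected on 0 of the 6 arrays, so the forebrain genes that start latest could not be followed.

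In the list for brain regions behind the forebrain, the genes with separated groups lay on the other side. In the midbrain, hindbrain and Iroquois list 16 of 23 genes were detected, with 9 above, 0 below and a median difference of 0.31. Hoxb1, which marks rhombomere 4 and before that the posterior epiblast and mesoderm, was at 6.86, 7.33 and 7.34 in the control and 9.26, 8.81 and 8.86 in the knockout arrays. This was the largest difference among the 6 probes with the smallest adjusted p, 1.80 (SE 0.20, limma adjusted p 0.0712), and a second Hoxb1 probe gave 1.70. Gbx2, which opposes Otx2 where midbrain and hindbrain meet, was at 10.52, 11.19 and 10.95 in the control and 11.92, 12.04 and 11.79 in the knockout arrays. Meis1, a Hox cofactor, was 0.97 higher and Hoxb2, a hindbrain Hox gene, 0.84 higher, both without overlap. With all arrays normalized together, control means of Hoxb1, Gbx2 and Hoxb2 were 7.00, 10.71 and 8.13 in the anterior. In the posterior they were 10.54, 13.09 and 9.67, so a rise of these genes does not by itself name a brain region. Meis1 was not higher there, at 9.31 in the anterior and 9.02 in the posterior. En1 and En2, of the midbrain and anterior hindbrain, differed by 0.30 and 0.03 with overlapping groups, and Irx3 by -0.44. Of the 35 Hox genes, 11 were detected, and only Hoxb1, Hoxa2 and Hoxb2 had all knockout arrays above all control arrays. Those between Hoxb4 and Hoxc10 differed by -0.04 to 0.26 with overlapping groups, while Hoxa13 was 0.23 lower.

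**Figure D2:**
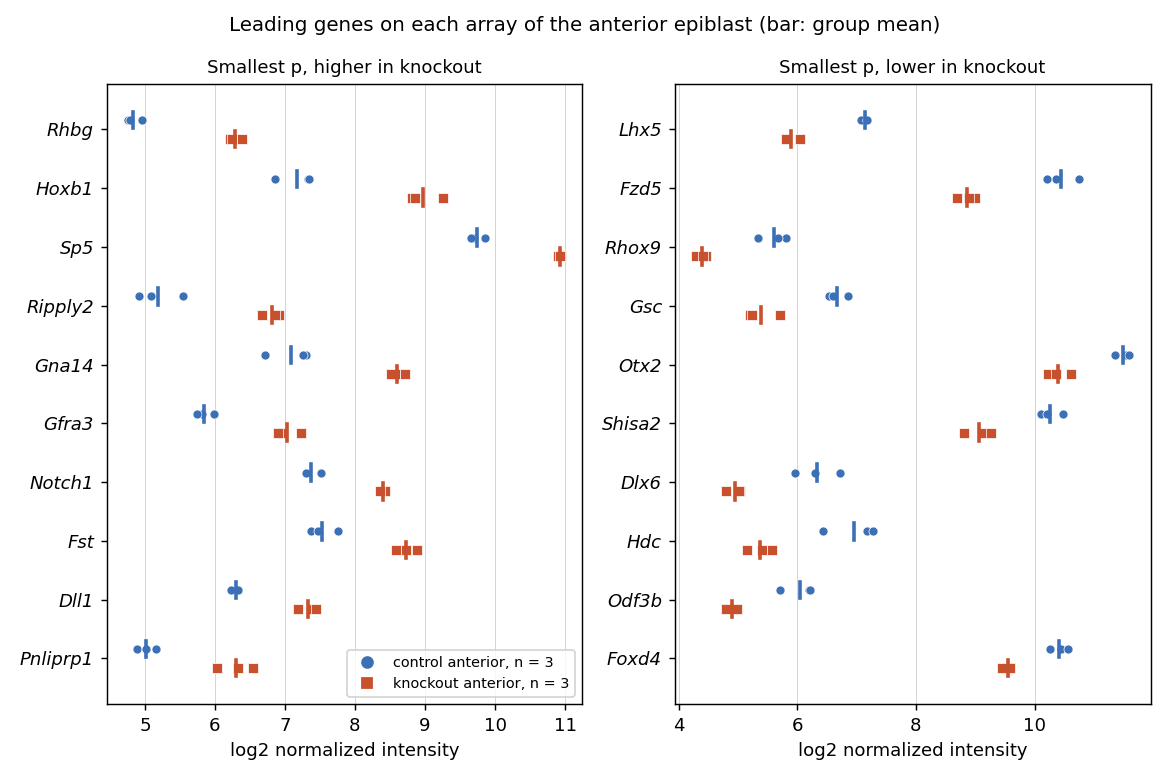
Log2 normalized intensity on the 3 control (circles) and 3 knockout (squares) anterior arrays, with vertical bars for group means, for the 10 genes with the smallest p in each direction. The genes were chosen by their p, the groups do not overlap for any of the 20, and the knockout arrays of Sp5 lie within 0.04 of each other.

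The mesoderm lists held the largest median. In the list for paraxial and presomitic mesoderm 19 of 28 were detected, with 11 above, 0 below, a median difference of 0.94 and a range from -0.17 to 2.12. Foxc2, a forkhead factor of paraxial and head mesoderm, was at 7.57, 7.93 and 7.58 in the control and 8.84, 9.52 and 9.09 in the knockout arrays. Ripply2, a repressor at the boundaries of forming somites, was at 4.92, 5.08 and 5.54 in the control and 6.92, 6.86 and 6.67 in the knockout arrays, and 1 of the control arrays did not detect it. Both were more than 0.9 log2 units above the control range on every knockout array, with differences of 1.46 (SE 0.20) and 1.63 (SE 0.19). Meox1, a homeodomain factor of the somites, had the largest difference in the list, 2.12, and the largest spread, at 5.38, 6.77 and 6.14 in the control and 7.93, 9.45 and 7.27 in the knockout arrays (SE 0.55, limma adjusted p 0.362). Twist1, a bHLH factor of head mesoderm and neural crest, was 1.19 higher, and Tcf15, a bHLH factor of the somites, 1.23 higher. Dll1 and Notch1, ligand and receptor of the Notch pathway that segments this mesoderm, were 1.04 and 1.03 higher, and both separated the groups. Elsewhere in the Notch list the differences were smaller, with 14 of 22 detected, 3 above, 0 below and a median of 0.13. Prrx1, Snai2, Cited1 and Ripply1 in the mesoderm list differed by -0.17 to -0.01 with overlapping groups.

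Of the primitive streak list 21 of 28 genes were detected, with 12 above, 2 below and a median difference of 0.70, and 6 of the 21 also belong to the Wnt target or paraxial lists. Fst, an inhibitor of activin expressed in the streak and somites, was at 7.37, 7.76 and 7.48 in the control and 8.59, 8.88 and 8.73 in the knockout arrays. Nkx1-2 and Cdx1, transcription factors of the posterior epiblast, were 0.94 and 1.04 higher. The 2 genes that lay below were Gsc and Cyp26a1. Gsc, a homeobox gene of the anterior streak and prechordal plate, was at 6.54, 6.60 and 6.85 in the control and 5.20, 5.71 and 5.23 in the knockout arrays, a difference of -1.29 (SE 0.18, limma adjusted p 0.0918). Cyp26a1, which degrades retinoic acid, was 0.54 lower. Snai1, the factor of epithelial to mesenchymal transition, and Eomes, a T-box factor of the streak, differed by 0.20 and -0.44 with overlapping groups. No probe was named for T, and it is not analysed here.

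In the cranial, pharyngeal and cardiac mesoderm 21 of 30 genes were detected, with 8 above, 2 below and a median of 0.29. Tbx1, needed in the pharyngeal mesoderm, was at 6.02, 5.91 and 6.04 in the control and 7.11, 8.23 and 7.17 in the knockout arrays. Myl2, a ventricular myosin light chain, was at 5.47, 6.16 and 6.60 in the control and 7.96, 7.57 and 7.57 in the knockout arrays. Gata6, a factor of cardiac mesoderm and endoderm, was 0.75 higher. Hand1, Tbx20 and Nkx2-5, cardiac transcription factors, were not higher, with differences of -0.57, -0.43 and -0.11. In the retinoic acid list 14 of 24 were detected, with 8 above, 1 below and a median of 0.49. Aldh1a2, the enzyme that makes retinoic acid in the mesoderm, was at 5.33, 5.87 and 6.05 in the control and 7.24, 8.02 and 7.10 in the knockout arrays, a difference of 1.70 (SE 0.28, limma adjusted p 0.141). Rarb, a receptor that is itself induced by retinoic acid, was 0.74 higher and Crabp1, a binding protein, 1.02 higher, while Crabp2 and Rarg had overlapping groups.

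**Figure D3:**
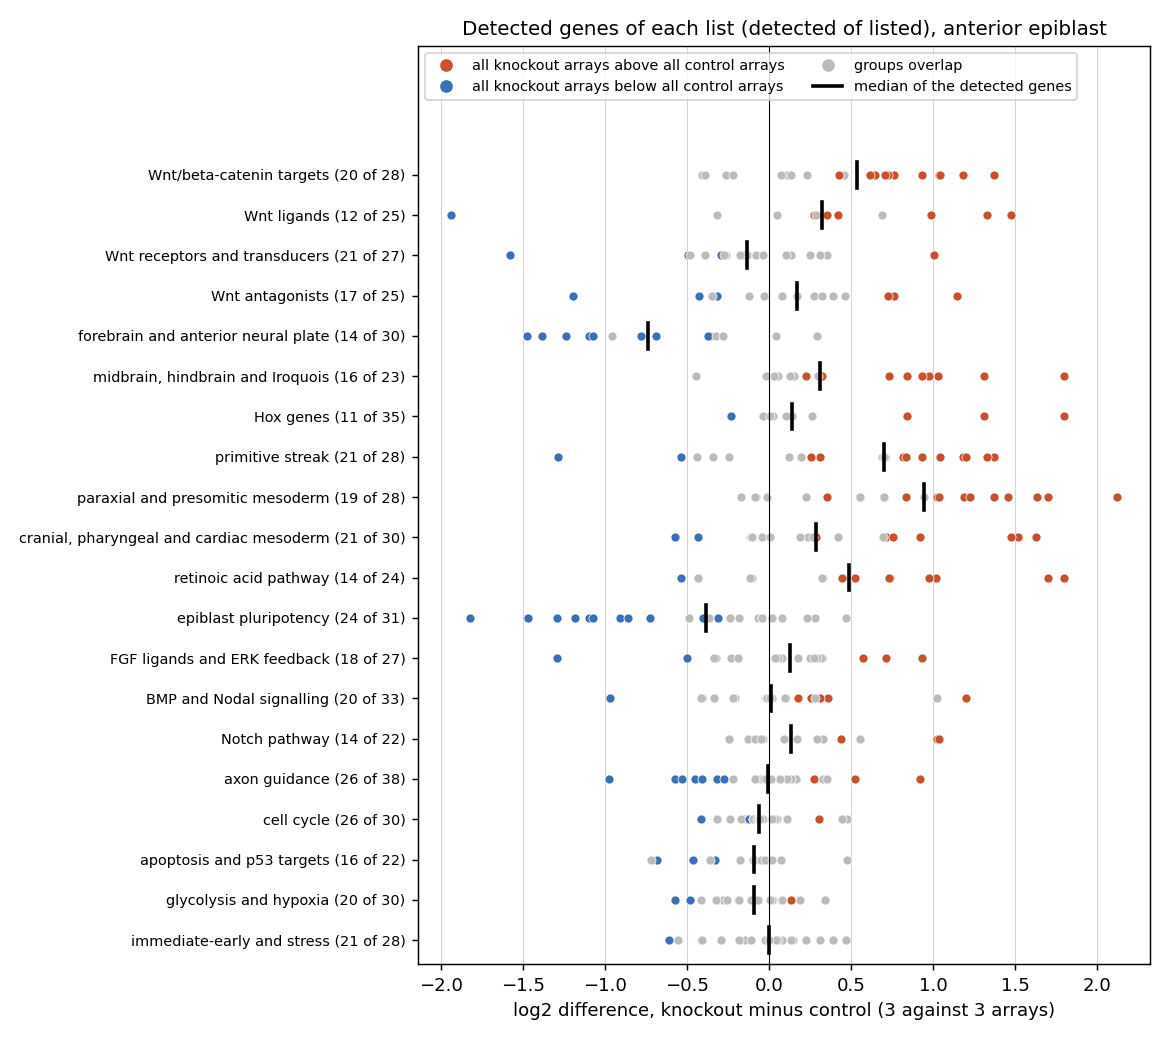
Each point is a detected gene of the list named on the y axis, the x axis gives its log2 difference between knockout and control anterior arrays, and black bars are medians. Points where all knockout arrays lie above all control arrays gather in the mesoderm, streak, Wnt target, Wnt ligand, retinoic acid and hindbrain lists. Points where they lie below gather in the forebrain and pluripotency lists. Medians run from -0.74 to 0.94.

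The epiblast pluripotency list had 24 of 31 genes detected, with 0 above, 12 below and a median difference of -0.39. Dppa4, a chromatin protein of pluripotent cells, was at 7.67, 8.44 and 7.54 in the control and 5.52, 5.78 and 6.90 in the knockout arrays. Fgf5, a ligand of the primed epiblast, was at 8.67, 8.18 and 7.95 against 7.16, 6.50 and 7.25, a difference of -1.30 (SE 0.26, limma adjusted p 0.235). Dnmt3l, a cofactor of DNA methylation, was 1.18 lower, Utf1 0.86 lower and Nanog 0.72 lower, without overlap. Pou5f1 was not separated, at 11.86, 11.80 and 11.87 against 11.89, 10.94 and 11.59, and Sall4, Lin28a and Trim71 differed by -0.24 to 0.02. Slc7a3, an amino acid transporter of the epiblast, was 0.91 lower on its brighter probe but 0.16 higher on a second one.

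Markers of the extraembryonic ectoderm lay lower on the same arrays, and Sox2, Esrrb and Zfp42 are in both lists. Of 26 listed, 18 were detected, with 3 above and 8 below, and the mean level of the 18 was 7.30 to 7.44 in the control and 6.53 to 6.98 in the knockout arrays. Elf5, a transcription factor that defines this tissue, was at 7.43, 7.51 and 7.03 in the control and 4.78, 4.37 and 6.57 in the knockout arrays. The knockout arrays were unequal, and Wnt7b, Dppa4 and Esrrb were also highest in knockout replicate 3. Hdc, histidine decarboxylase, was at 6.43, 7.18 and 7.28 against 5.40, 5.58 and 5.15. Unlike Elf5 it was lowest in knockout replicate 3. With all arrays normalized together, its control posterior mean was 6.95, near its control anterior mean of 6.79, while that of Elf5 was 4.35. Rhox9, an X-linked homeobox gene, was detected on all control arrays, at 5.34, 5.80 and 5.68, and on no knockout array, at least 1.52-fold lower. Gcm1, Tpbpa, Prl3d1, Prl3b1 and Plet1, markers of trophoblast, were not detected. Eomes and Ascl2, which this tissue also expresses, had overlapping groups, and Cdx2 and Bmp4 lay above. Bmp4 did so by 0.31 on its brightest probe, while a second Bmp4 probe differed by 0.01 with overlapping groups. The part of this tissue in the pluripotency and Wnt7b values was not tested.

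Motile cilia are carried by the node, and their genes were listed with those of node and notochord. In the node, notochord and cilia list 17 of 26 genes were detected, with 1 above, 3 below, 6 lower at an unadjusted p under 0.05 and a median difference of -0.21. Dynlrb2, a dynein light chain, was at 6.64, 7.82 and 7.92 in the control and 5.99, 5.96 and 4.67 in the knockout arrays. Odf3b was at 5.71, 6.20 and 6.21 in the control and detected on no knockout array, at least 2.04-fold lower. Fam183b, at 6.89, 8.42 and 8.56 against 6.56, 7.13 and 5.56, overlapped, since control replicate 1 was low for it as for Dynlrb2 and Cfap126. Tekt1, a tektin of cilia, was 0.98 lower on one probe and 0.86 on another. Foxj1, the transcription factor that drives motile cilia, was near the detection limit at 4.95, 5.31 and 4.92 in the control and 5.02, 5.16 and 5.21 in the knockout arrays. Noto, Shh, Foxa2 and Chrd, genes of node and notochord, all had overlapping groups, at -0.59 for Noto and between -0.21 and 0.20 for the rest.

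**Figure D4:**
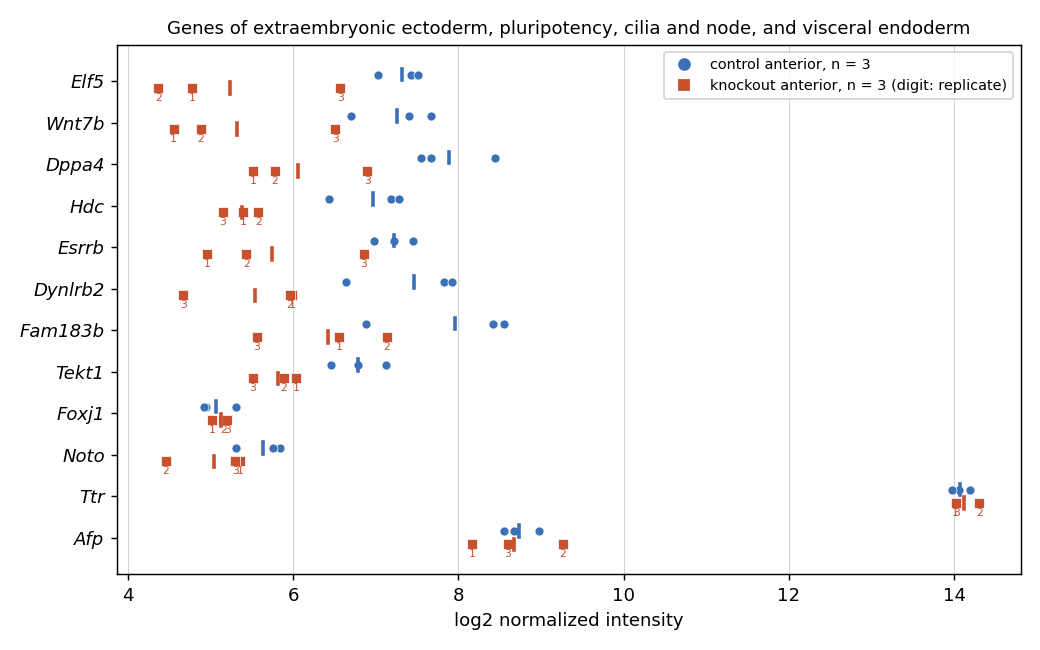
Log2 normalized intensity on the 3 control and 3 knockout anterior arrays, with bars for group means and digits for knockout replicates. The genes were listed as markers of extraembryonic ectoderm (Elf5, Wnt7b, Hdc, Esrrb), pluripotency (Dppa4), cilia and node (Dynlrb2 to Noto) and visceral endoderm (Ttr, Afp). Among the knockout arrays Elf5, Wnt7b, Dppa4 and Esrrb are highest in replicate 3. Hdc is lowest in replicate 3, as are the cilia genes Dynlrb2, Fam183b and Tekt1, and Ttr and Afp overlap between the groups.

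The markers of the anterior visceral endoderm and prechordal plate, the sources of Dkk1, were divided. Of 18 listed, 16 were detected, with 2 above and 6 below, a median of -0.23 and a mean level of 7.92 to 7.97 in the control against 7.52 to 7.63 in the knockout arrays. Those below were Fzd5, Gsc, Shisa2, Otx2, Hhex and Sfrp1, and Fzd5, Shisa2 and Otx2 are also expressed in the anterior neural plate. Those above included Sfrp5, which no control array detected and which was at least 1.59-fold higher. Hhex, a homeobox gene of anterior endoderm, was 0.64 lower, whereas Cer1, Foxa2, Shh and Lhx1 had overlapping groups. In the definitive endoderm list, which shares Hhex, Cer1 and Foxa2, 17 of 21 were detected, with 2 above and 2 below and a median of 0.02. Blood and endothelium markers gave 1 above and 2 below of 18 detected, and those of the allantois and lateral mesoderm 4 above and 2 below of 14. Surface ectoderm, amnion and neural border markers gave 2 above and 6 below of 17. Tfap2a was 0.68 lower and Gata3 0.80 lower, while Dlx3 was 0.72 higher with all knockout arrays above all control arrays. Other Tfap2a probes gave -0.38 and -0.53 with overlapping groups. Neural crest markers gave 2 above and 2 below of 8, and those of primordial germ cells, which share Dppa4, Sox2, Tfap2c and Nanog with other lists, 2 above and 5 below of 10.

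The remaining lists cover signalling and housekeeping genes. FGF ligands and feedback genes gave 4 above and 2 below of 18 detected: Fgf8, at 7.00, 7.10 and 7.16 in the control and 7.57, 8.45 and 8.05 in the knockout arrays, was 0.93 higher and Fgfr1, a receptor, 0.50 lower. BMP and Nodal genes gave 5 above and 2 below of 20, with a median of 0.01 and a highest difference of 1.20. Those below included Id4, a target of BMP, 0.97 lower, and Id1, another target, 0.41 lower. Lefty2 was 1.02 higher with overlapping groups. Axon guidance genes gave 3 above and 7 below of 26, among them Efnb2, an ephrin of paraxial mesoderm, 0.92 higher and Unc5b, a netrin receptor, 0.98 lower. Cell cycle genes gave 1 above and 3 below of 26, with a median of -0.06, and apoptosis and p53 target genes 0 above and 3 below of 16. Glycolysis and hypoxia genes gave 1 above and 2 below of 20, and immediate-early and stress genes 0 above and 1 below of 21.

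Outside the lists, the gene with the smallest p was Rhbg, which encodes an ammonium transporter. It was at 4.76, 4.96 and 4.79 in the control, where 1 array detected it, and at 6.39, 6.22 and 6.24 in the knockout arrays, a difference of 1.45 (SE 0.14, limma adjusted p 0.0712). Gna14, a G protein alpha subunit, was at 6.71, 7.30 and 7.27 in the control and 8.71, 8.57 and 8.51 in the knockout arrays. Gfra3, a co-receptor for artemin, was 1.18 higher and Pnliprp1, a lipase-related protein, 1.28 higher. Foxd4, a forkhead gene of the anterior neural plate, was at 10.45, 10.56 and 10.25 in the control and 9.59, 9.59 and 9.46 in the knockout arrays. Also under an adjusted p of 0.1 were Igfbpl1, Pdlim4 and Rasgrp3, which were chosen for mention after their values were seen and lay 1.59, 1.06 and 1.10 higher. A probe without a gene name in the sources used here, ILMN_2879102, was 1.24 lower, and another, ILMN_2524945, 1.53 higher.

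The same genes were read on the posterior arrays, which come from the same genotypes and stage, after all 12 arrays had been normalized together. Since the anterior arrays enter both readings, the means are set side by side without a test. Hoxb1 had a mean of 7.00 in the control anterior, 8.80 in the knockout anterior, 10.54 in the control posterior and 10.85 in the knockout posterior arrays. Sp5 was ordered in the same way, at 9.57, 10.75, 11.59 and 11.97. Rhbg was at 4.74, 6.13, 6.58 and 6.53, with its knockout posterior mean slightly below the control posterior one. The knockout anterior mean of each lay between the control anterior and control posterior means. For genes lower in the knockout, Fzd5 had means of 10.27, 8.67, 7.85 and 7.46, Lhx5 6.96, 5.75, 4.77 and 4.55, and Shisa2 10.10, 8.89, 6.75 and 7.01, with the knockout anterior mean again between the control means. This held for 12 of the 20 genes with the smallest p, 10 in each direction. These 20 were chosen by their anterior difference, and the share over all genes was not computed, so the count has no background. For Ripply2, Gfra3 and Pnliprp1 the knockout anterior mean lay above both control means, and for Rhox9, Gsc, Dlx6, Hdc and Odf3b below both. Ripply2 had a mean of 5.07 in the control anterior, 6.64 in the knockout anterior and 6.02 in the control posterior arrays, and Hdc 6.79, 5.25 and 6.95. Outside these 20, the mesoderm genes Foxc2, Tbx1 and Twist1, and Meis1, also had knockout anterior means above both control means. Those of Foxc2 were 7.51, 8.97, 7.68 and 7.26, and its 3 knockout anterior arrays were the highest of the 12. Otx2 was at 11.33, 10.23, 8.58 and 6.14, and its knockout posterior arrays were spread from 4.54 to 7.38.

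**Figure D5:**
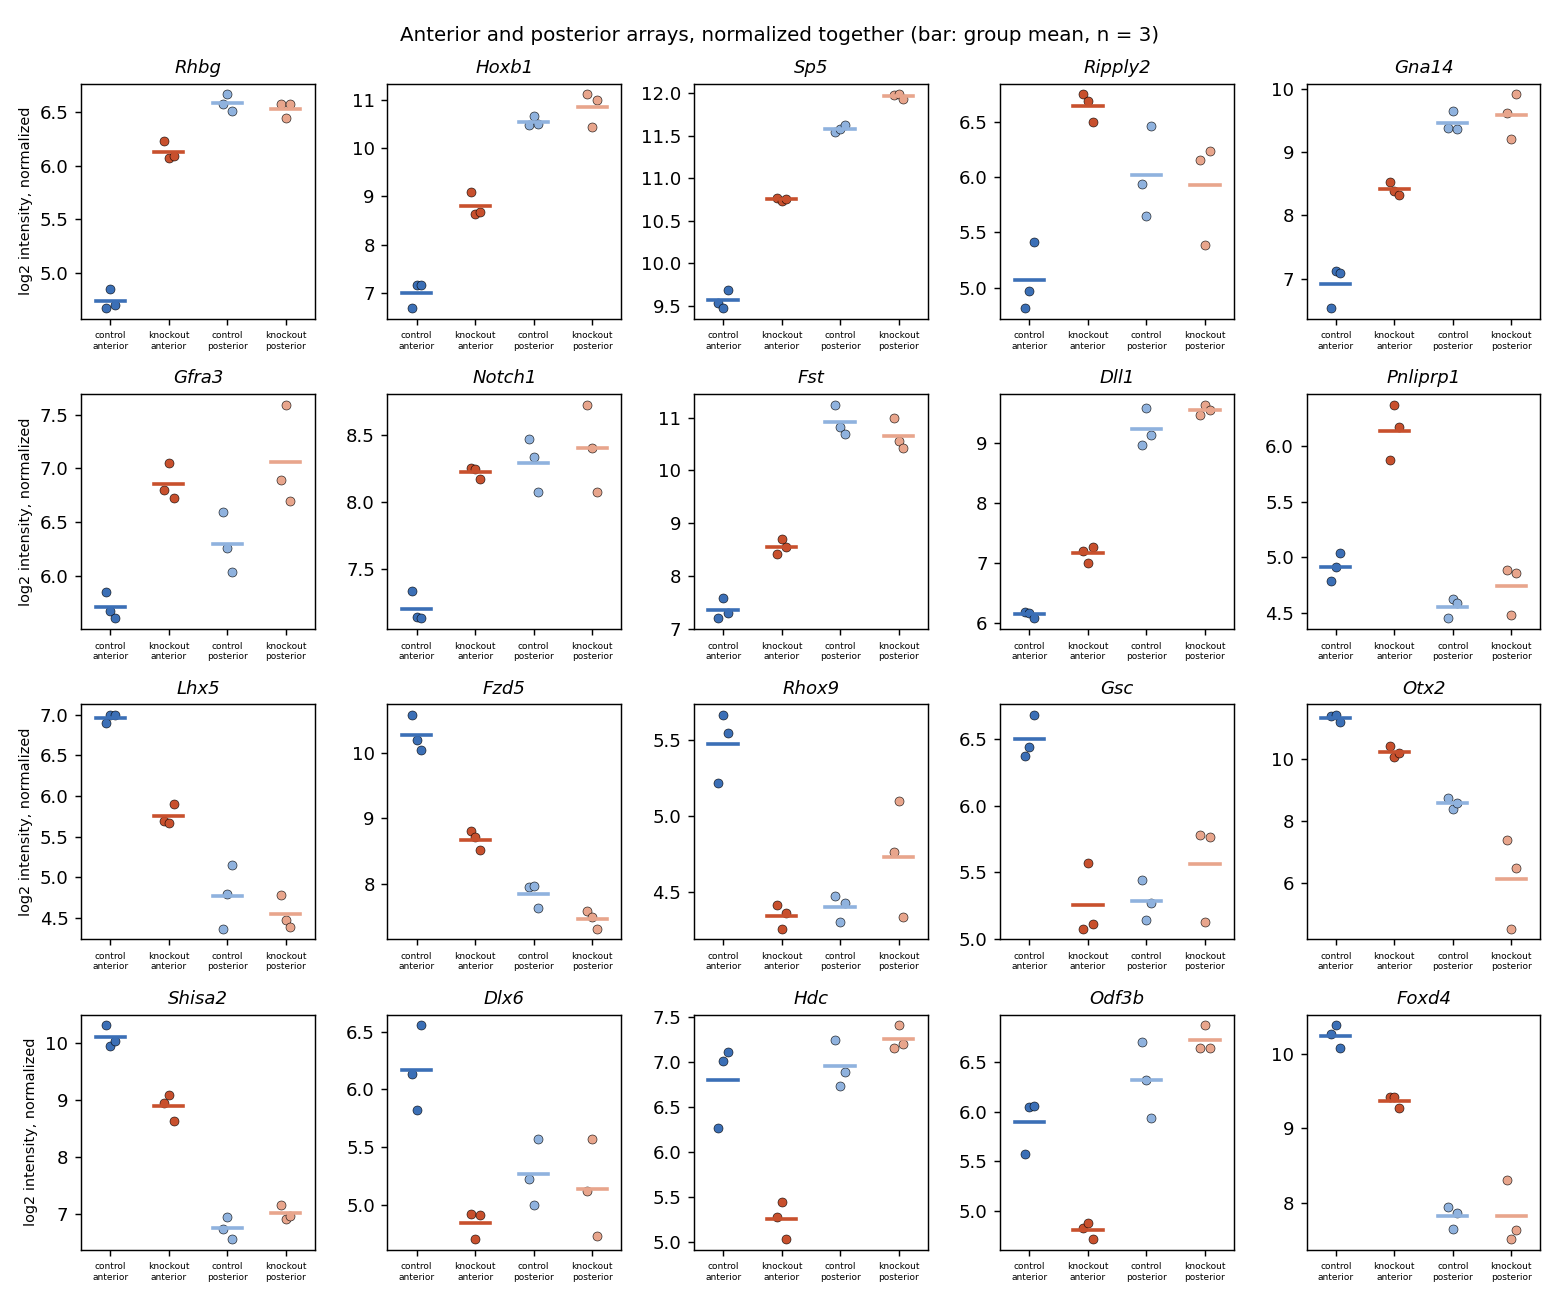
Log2 normalized intensity of the 20 genes with the smallest p (10 higher in the knockout, then 10 lower) on the 12 arrays of the series, normalized together, by genotype and region, with horizontal bars for the means of 3 arrays. In 12 genes the knockout anterior mean lies between the control anterior and control posterior means, in 3 above both and in 5 below both. The shares over all genes were not computed.

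Whether the genotype effect differed between the regions was tested with an interaction term in limma that treated the 12 arrays as independent. Xist was alike on same-numbered anterior and posterior arrays, at 9.47 and 9.20, 4.36 and 4.45, and 8.12 and 7.96 in the control. In the knockout it was at 9.06 and 9.16, 9.59 and 9.52, and 10.22 and 10.02. The labels do not say whether the 2 regions of a replicate came from the same embryos, and pairs within a genotype were not modelled. The interaction was past an adjusted p of 0.05 for 1 of 18903 probes (0.00529%), that of Rhbg. There the posterior difference was -0.05 and the posterior minus the anterior difference was -1.44 (SE 0.17, limma adjusted p 0.029). The unadjusted p was under 0.05 for 1034 of the 18903 probes, a threshold that some probes pass even where nothing differs. For Shisa2 the posterior minus the anterior difference was 1.47 (limma adjusted p 0.238), for Foxc2 -1.87 (adjusted p 0.256), for Hoxb1 -1.49 (adjusted p 0.314) and for Otx2 -1.34 (adjusted p 0.928). Of the genes above, none other than Rhbg was therefore shown to differ between regions, and the Rhbg call itself was lost in 13 of 14 alternatives.

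The lists were also read without knockout replicate 2, an alternative added after that array was seen to stand apart. The median of paraxial mesoderm was then 1.03, that of the streak 0.71, that of the Wnt targets 0.58, that of the forebrain -0.61 and that of pluripotency -0.35. All knockout arrays lay above all control arrays for 13 of 19, 13 of 21 and 12 of 20 genes of the first 3 lists and below for 11 of 14 and 13 of 24 of the last 2. With 2 arrays on one side the background rose to 11.1% of genes above and 13.8% below. The extraembryonic ectoderm markers were below for 10 of 18 and above for 3. Over the 20 alternatives the median of every one of these lists kept its sign, between 0.55 and 1.07 for paraxial mesoderm, 0.24 and 0.58 for Wnt targets and -0.83 and -0.40 for the forebrain.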

How the data were processed

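RNA from microcolumns was labelled by standard Illumina procedures, per the labels' protocols, and read with GenomeStudio, per the submitters' processing notes; neither names a version or an array model. The deposited non-normalized table holds probe intensity on a linear scale and a detection p-value for each probe and array, per the file headers. The deposited series matrix holds log2 values from the authors for 33557 probes, with the normalization not given, and served as an alternative.

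Intensities of the 6 anterior arrays went through neqc (limma 3.58.1, R 4.3.3, offset 16), which corrects the background, normalizes by quantiles and takes log2. Levels are log2 normalized intensities, differences are knockout minus control, and with 3 arrays a group their number limits the precision. Each probe was fitted with lmFit and eBayes (prior degrees of freedom 4.15), with Benjamini-Hochberg adjustment over all 18903 probes, after a test on simulated data. The interaction was fitted over the 12 arrays. Of the probes, 30058 had 1 gene name (25561 by gene number, 1936 by accession, 2561 from the probe table) and 16179 had none. A gene stands for its detected probe with the highest mean (3130 genes had several).

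The members, lists and tests were chosen with earlier results of these data known. Named are Dkk1, the 10 genes with the smallest p in each direction since none was called, up to 4 members of smallest p per list, a fixed set of markers, the genes of largest SD (6 a group) and the neighbours of Dkk1; other members named with their values were chosen after these were seen, as were the printed promoters, since no target was called. Replicate numbers are shared between the groups, but deviations of same-numbered arrays correlated at 0.13, -0.11 and -0.08, so they were not treated as pairs. Alternatives were another normalization, filter, variance model or covariate, array weights, a replicate block and leaving out each array. Matplotlib 3.10.9 drew the plots.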

Additional observations from a re-analysis of the deposited data

Results flagged for a closer look

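Rhbg was the only probe whose genotype effect differed between the regions by the interaction test, which treated the 12 arrays as independent. The posterior minus the anterior difference was -1.437 on the log2 scale (SE 0.171, limma adjusted p 0.029). All 3 knockout anterior arrays were above all 3 control anterior arrays, and the posterior groups overlapped. Over 14 alternatives the value ran from -1.49 to -0.52 and the adjusted p from 0.0305 to 0.283, and the call held in 1 of them, the one without knockout anterior replicate 3. Its level in the control anterior arrays was close to the detection limit. The cause was not tested.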

How the results depend on the processing

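The count of 0 probes stayed at 0 with normalization over all 12 arrays, cyclic loess, median scaling, both other filters, Xist as a covariate and without each array in turn (lowest 0, highest 0). It was 48 with all 4 groups in the fit, 21 without background correction, 28 with an offset of 50, 23 in the series matrix values, 27 with 1 probe per named gene, 33 with trended and robust variances and 403 with array weights, of which 169 were higher and 234 lower. Sp5, Fzd5, Hoxb1, Lhx5, Ripply2, Twist1, Notch1, Gna14, Shisa2, Foxc2 and Fst were called in 7 of 20 alternatives and Otx2 in 6, and none of these reversed. The sizes of some differences depended on the background correction. Lhx5 ran from -1.33 to -0.59 and was -0.66 without that correction, and Ripply2 ran from 0.65 to 1.85. Sp5, from 1.11 to 1.26, and Fzd5, from -1.69 to -1.41, moved less. Dkk1 was called in 0. With a replicate block the count was also 0 (1345 probes at an unadjusted p under 0.05, against 1474). Median scaling moved the median of all probes from 0.00 to 0.06. The interaction called 1 probe without background correction, Shisa2 in place of Rhbg, 0 with a replicate block, and between 0 and 5 without each array in turn, with 5 when knockout anterior replicate 3 was left out (Elf5, Tmem114, Rhbg and both probes of Dnmt3l) and 2 without control anterior replicate 1 (Hdc and Cfap126). The cause of these shifts was not tested. The median of the axon guidance list changed sign in 8 of 20 alternatives, that of immediate-early genes in 7 that of visceral endoderm in 4 and those of 4 other lists in 1 to 3. Genes near a log2 level of 5, the lowest detected signal, such as Rhbg, Foxj1 and Hesx1, are limited by signal over background.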
